A study of Arabidopsis thaliana with 64 samples.

Results

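AT1G54410 is an Arabidopsis thaliana gene that encodes a dehydrin, and 50 of the 13824 probes of the array carry its name, the largest number for any of the 5164 genes named there. All 50 were taken, by their annotation alone, and their log2 ratios were summarised on each array by the median and the standard deviation (SD) of the 50. Dehydrins are hydrophilic proteins of the late embryogenesis abundant (LEA) class. They accumulate in drying seeds and in leaves and roots under water loss, salt or cold, where they are known to protect membranes and enzymes. AT1G54410, also called HIRD11, is a small histidine-rich dehydrin of the KS type, which binds metal ions. By its locus name it lies on chromosome 1. The build behind the probe annotation is not given in the sources used here, so no coordinates are printed, and no probe sequences were at hand.

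The study hybridised RNA of flowering lines against RNA of a comparator on 64 arrays of 2 colours, in 32 groups of 2 arrays. Every group held 1 array of each dye orientation, called swapped and unswapped here, with 32 arrays of each. The 14 single lines were compared under 16 h and 8 h of light, with 4 arrays per line. Of these, FY, FVE, FPA and FCA act in the autonomous pathway of flowering, which works through the repressor FLC. GI, CO, FHA, FT, FD, FE and FWA are lines of the photoperiod pathway or its output. GAI is a repressor of gibberellin signalling and SOC1 an integrator of several flowering pathways. These 13 lines were set against wild type at 12 days of age, and FLC20 was set against C24 at 9 days. Double mutants FCAVRN1 and FCAVRN2 were set against wild type or against FCA, in 4 groups. The labels name no alleles, tissue or dyes, and do not say whether arrays shared one wild-type extract. In 3 groups the titles and descriptions give opposite day lengths, namely FVE titled 16 h and both FCAVRN1 groups. FVE was used by its titles, and no day length was drawn from FCAVRN1.

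The deposited values were ratios with a median of 1 on every array, so a log2 value of 0 stands for the typical probe of that array, not for a known absolute level. The labels do not settle which channel is on top of the ratio. A positive value most likely means higher in the line than in its comparator, and if the direction is turned, every "higher" below reads "lower" while sizes, p-values and counts stay. Swapped arrays were taken to run the same way as unswapped ones. Over all probes, 22 of 32 groups had a positive correlation between their 2 arrays once the mean of each orientation was subtracted, and 10 had a negative one. Of 992 pairs of arrays that shared an orientation but not a group, 7 correlated below -0.3, the lowest at -0.46, so the direction is not settled for every array. With swapped arrays turned, several probe results below changed sign, and they are named in the closing section.

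The 50 probes did not rise and fall together. Across the 64 arrays their 1225 pairs had a median Pearson correlation of -0.0068, with 631 pairs below 0. The 5th and 95th percentiles were -0.350 and 0.418. Among 13679 probes with a ratio on every array, pairs of any kind had a median of -0.0025, with 5th and 95th percentiles of -0.370 and 0.386. A pair of AT1G54410 probes was therefore about as alike as any pair on the array. Pairs above 0.5 made up 2.45% of the AT1G54410 pairs, against 1.94% over all pairs. Arrays, dyes and normalization are shared by every point of these correlations, which are given as a description.

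Other genes with many probes gave a different picture. AT5G14540, the gene with the next largest number of probes, had 19, and their pairs had a median correlation of 0.663. AT1G23950 had 12 probes with a median of 0.246, and AT5G51510 had 9 with a median of 0.446. All 25 other genes with at least 5 probes had a higher median than AT1G54410, from 0.018 to 0.880. Among 772 genes with 2 to 4 probes the middle value of the median was 0.237, and 180 of these genes (23.3%) were lower than AT1G54410. A value common to all probes of an array accounted for 0.022 of the variance of the 50 probes, against 0.472 for AT5G14540 and a median of 0.349 over the 25 genes. The 50 thus shared little variation over these arrays. Whether they measure a single transcript was not tested, and correlations cannot decide it. A transcript that changes little gives its probes little to share, and no probe sequences were at hand. The probes of AT1G54410 are called the 50 annotated probes below, and no level of the dehydrin transcript is read from them.

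**Figure D1:**
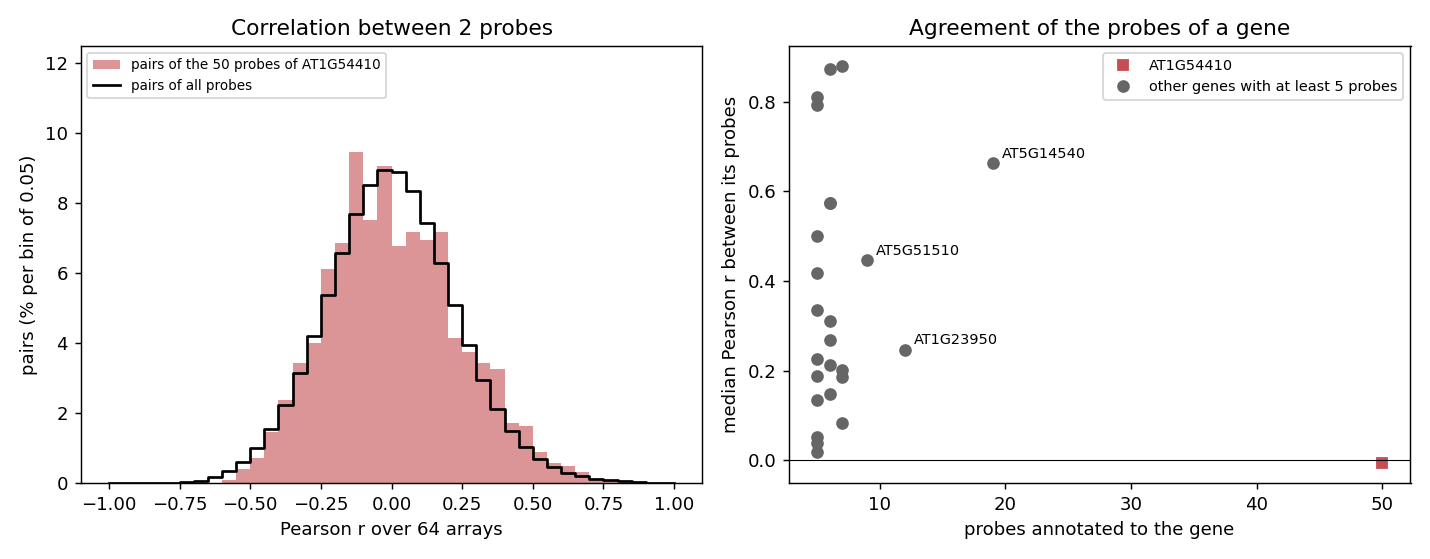
Left, Pearson correlations over the 64 arrays of pairs of AT1G54410 probes (filled bars) and of all probes (line), as percent of pairs per bin; right, the median correlation of each gene with at least 5 probes against its number of probes. The AT1G54410 pairs centre on -0.0068, as do pairs of any probes near 0, while the 25 other genes all have higher medians.

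No single probe tracked the rest. The mean correlation of a probe with the other 49 ran from -0.085 to 0.085. The lowest pair was SP0000123675 with SP0000125869, at -0.565, and the highest was SP0000123695 with SP0000123716, at 0.784. Of the 50 identifiers, 44 fell in one run of 3000 neighbouring identifiers, 5 lay below it and 1 above it. Probes with neighbouring identifiers were no more alike than others. The 16 pairs that were at most 5 numbers apart had a median correlation of -0.057, from -0.184 to 0.468.

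**Figure D2:**
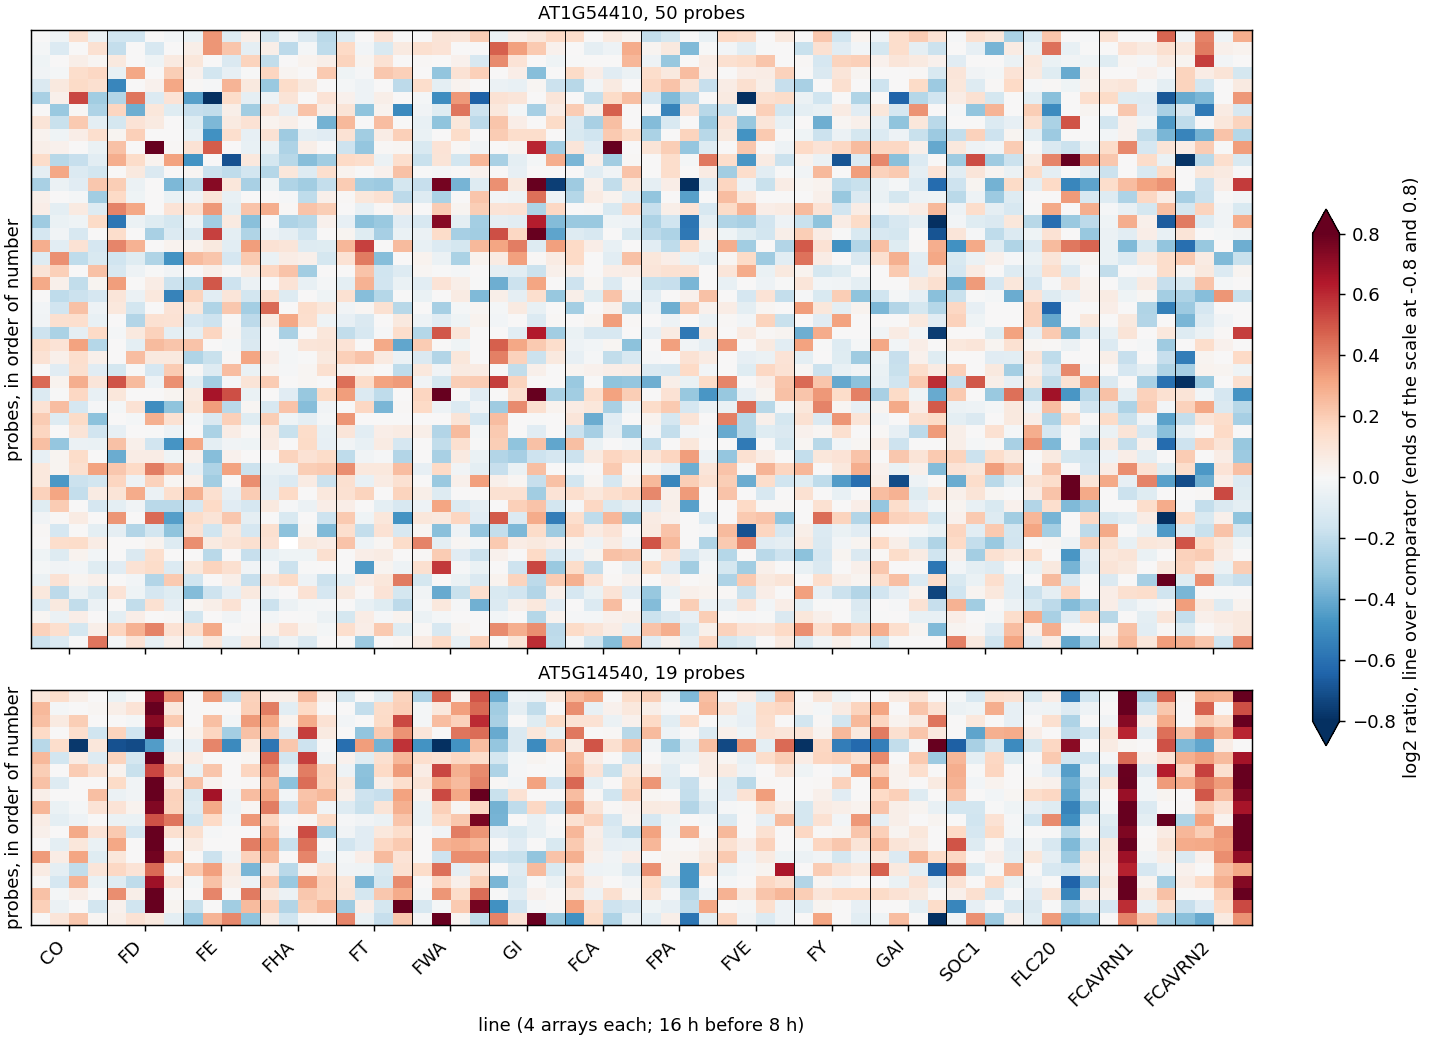
Log2 ratios (colour, cut at the ends of the scale) of the 50 annotated probes above and the 19 probes of AT5G14540 below, with a row per probe and a column per array, 4 arrays per line, 16 h before 8 h by the titles. On several arrays most AT5G14540 probes share one colour, whereas AT1G54410 has between 13 and 32 probes above 0 on every array.

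The median of the 50 annotated probes stayed close to 0. It ran from -0.053 (GAI at 8 h, replicate 1) to 0.060 (GI at 8 h, replicate 1), with an SD of 0.016 over the arrays. It was exactly 0 on 33 of 64 arrays, above 0 on 15 and below 0 on 16, and within 0.02 of 0 on 56. For the 25 other genes with at least 5 probes, the SD of the array medians was between 0.073 and 0.397. Those genes had at most 19 probes, and a median over more probes varies less when they do not move together. Ratios deposited as exactly 1 made up 385 of the 3199 ratios of the 50 probes (12.0%), against 10.9% over all probes. With those left out the medians ran from -0.109 to 0.10 and their SD was 0.037.

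On a given array the individual probes spread widely around that median. The SD of the 50 within an array was 0.171 at the median array, from 0.107 (FWA at 16 h, replicate 1) to 0.393 (FWA at 16 h, replicate 2). It was below the SD of all probes of the array on 61 of 64 arrays. The 3 arrays with the larger spread among the 50 were FCAVRN1 against wild type replicate 2 (0.331), FE at 16 h replicate 2 (0.308) and FVE titled 16 h replicate 2 (0.267). Between 13 and 32 of the 50 probes were above 0 on any array, so every array had annotated probes on both sides of its typical ratio.

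**Figure D3:**
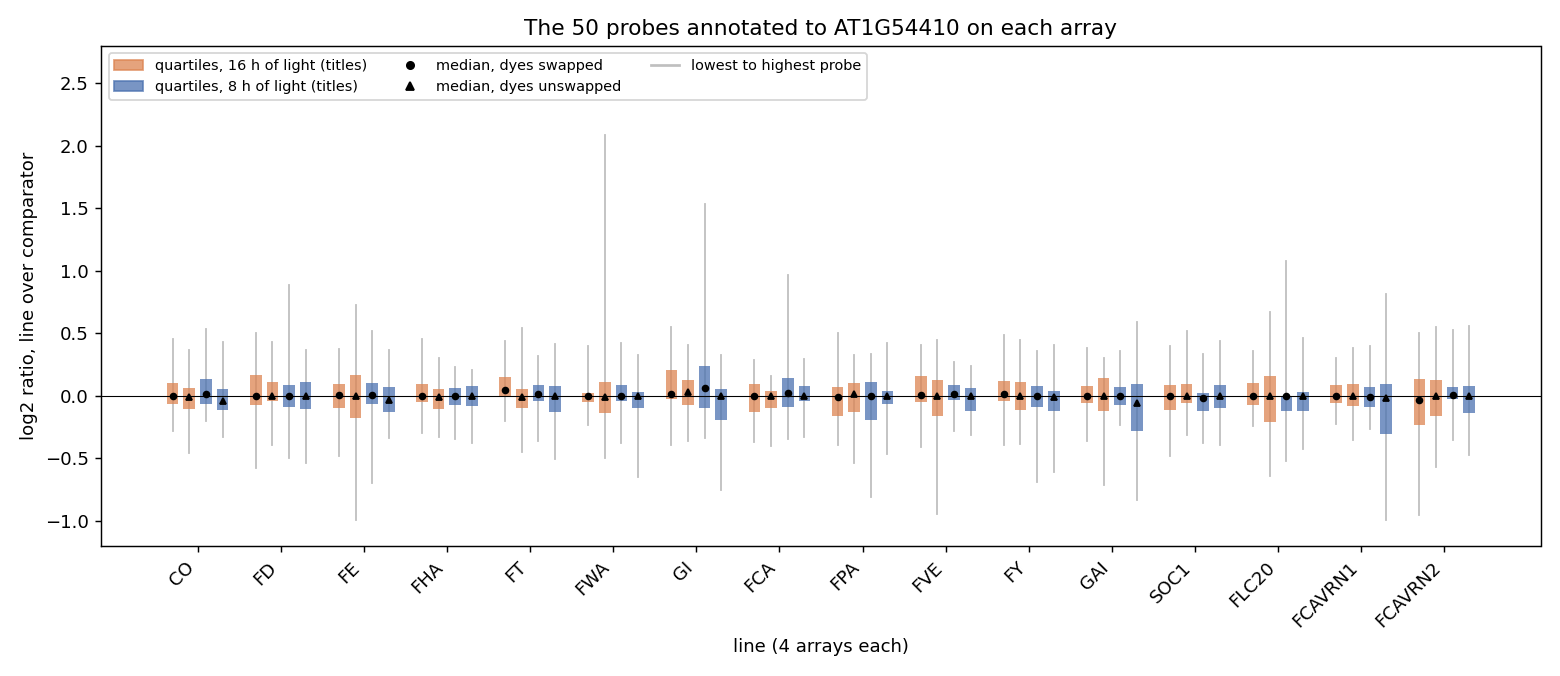
Log2 ratios of the 50 annotated probes on each of the 64 arrays, by line and hours of light as titled, with the median as a point (circle for swapped, triangle for unswapped), the quartiles as a bar and the lowest to highest probe as a thin line. Medians lie between -0.053 and 0.060, and the longest line reaches 2.09 on FWA at 16 h replicate 2.

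By line, the medians overlapped throughout. GI was the highest line, with 0.014 and 0.032 on its arrays at 16 h and 0.060 and 0 on those at 8 h. GAI was the lowest, with 0 and 0 at 16 h and -0.053 and 0.0009 at 8 h. In FT the arrays gave 0.044 and -0.0061 at 16 h and 0.012 and 0 at 8 h. In CO they gave 0 and -0.0099 at 16 h and 0.013 and -0.043 at 8 h. FD and FLC20 had medians of exactly 0 on all 4 arrays. With ratios of exactly 1 left out, FD gave 0.020 and 0.076 at 16 h and 0.0091 and 0.026 at 8 h. FLC20 then gave 0.0020 and 0.0022 at 16 h and -0.043 and -0.021 at 8 h. The remaining single lines lay between -0.030 (FE at 8 h, replicate 1) and 0.022 (FCA at 8 h, replicate 1).

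Day length and comparator did not separate the medians either. The 28 arrays of single lines at 16 h ran from -0.012 to 0.044, and the 28 at 8 h from -0.053 to 0.060. Arrays of the autonomous lines ran from -0.011 to 0.022 (16 arrays), inside the range of the photoperiod lines, -0.043 to 0.060 (28 arrays). Against C24 all 4 medians were 0, and from -0.043 to 0.0022 with ratios of exactly 1 left out. Against FCA they ran from -0.036 to 0, with 3 of 4 at 0, and against wild type from -0.053 to 0.060 over 56 arrays. The spread within an array had a median of 0.224 against C24, 0.194 against FCA and 0.170 against wild type. C24 was used with FLC20 alone, at 9 days, so that comparator, line and age cannot be told apart. Both double mutants were set against wild type as well as FCA, but at a different labelled day length for each comparator. Comparator and day length cannot be told apart there.

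In the gene table, where AT1G54410 is represented by the median of its probes, no comparison passed. limma was fitted across 12647 rows, and 0 of 50 contrasts of AT1G54410 had an adjusted p under 0.05, against 1.68% of all rows and contrasts. In this fit none of the 50 had an unadjusted p under 0.05. The smallest adjusted p was 0.724, for dye orientation. Line differences ran from -0.013 (GAI) to 0.026 (GI), with a standard error (SE) of 0.033, or 0.041 for GI. The interval for GI, at 95% confidence, was -0.057 to 0.109 on the log2 scale.

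Averages over lines were narrower. Over the 13 lines set against wild type the difference was 0.0011 ± 0.0095 (SE; adjusted p = 0.951 in limma), with an interval of -0.018 to 0.020. The difference of 16 h minus 8 h averaged 0.0036 ± 0.0189 (SE; adjusted p = 0.935), with an interval of -0.035 to 0.042. Autonomous minus photoperiod lines differed by 0.0004 ± 0.0212 (SE), with an interval of -0.043 to 0.043. In the 4 double mutant groups the values ran from -0.018 to 0.0031, each with an SE of 0.047. No line was set apart from the mean of the others, with differences from -0.015 to 0.027.

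The standard errors of this row were set largely by other genes. Its own residual SD was 0.016, against 0.180 for the median row, and moderation in limma raised it to 0.067. With its own SD alone, still 0 of 50 contrasts passed, and the smallest adjusted p was 0.0688 for dye orientation (0.0098 ± 0.0040, SE). In that fit without moderation the unadjusted p was 0.0097 for GI (0.026 ± 0.0095, SE). It was 0.0091 for GI minus the other lines and 0.019 for dye orientation. Since the probes did not move together, these intervals are given for the median of the 50 and not for a transcript.

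**Figure D4:**
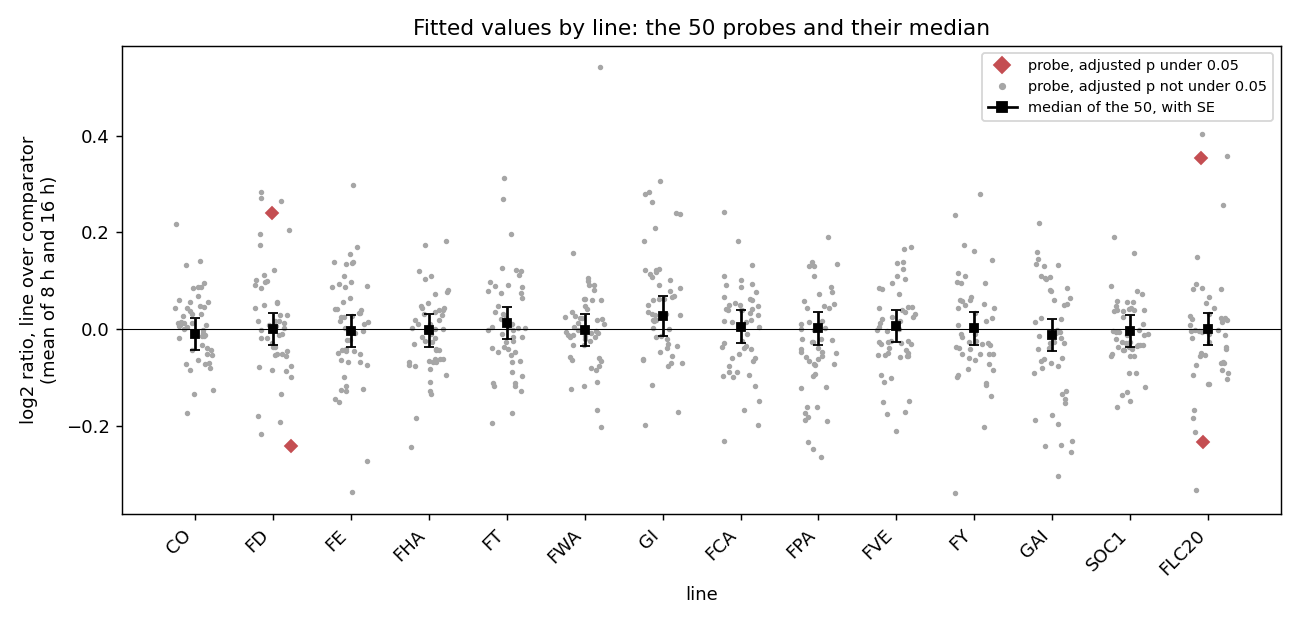
Fitted log2 differences of each single line against its comparator, as the mean of both day lengths, for the 50 annotated probes one by one (grey, or red at an adjusted p under 0.05 in limma) and for their median (black, with its SE). The medians lie between -0.013 and 0.026, and FD and FLC20 each hold 1 called probe above 0 and 1 below.

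Permutation tests on the array medians, which flip signs over lines or groups, gave the same picture in 5 tests. The mean over 13 lines was 0.0011 (two-sided permutation p = 0.722, adjusted p = 0.753, above 0 in 6 and below 0 in 6). For 16 h minus 8 h the mean was 0.0036 (permutation p = 0.259, adjusted p = 0.432, higher at 16 h in 7 of 13 lines). Swapped minus unswapped arrays differed by 0.0089 over 32 groups, higher on the swapped array in 19 and lower in 5 (permutation p = 0.0294, adjusted p = 0.147). The spread of the 50 differed by 0.0049 between 16 h and 8 h (permutation p = 0.753, adjusted p = 0.753) and by -0.020 between swapped and unswapped arrays (permutation p = 0.256, adjusted p = 0.432).

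Each of the 50 annotated probes was also tested by itself, in a fit of all 13824 probes. Over the 14 lines they had 4 calls in 700 tests (0.571%), against 1.17% over all probes. FD had 2 of the calls, or 4% of the 50 against 5.85%, and FLC20 the other 2, or 4% against 6.09%. In the remaining 12 lines none of the 50 was called. There the share over all probes was 0% in CO, 0.0723% in FCA, 0.253% in FE, 0.0362% in FHA, 0.0723% in FPA and 0.00723% in FT. It was 0.0145% in FVE, 0.543% in FWA, 1.82% in FY, 0.383% in GAI, 1.17% in GI and 0.0289% in SOC1. At an unadjusted p under 0.05, 59 of the 700 tests passed (8.43%), against 10.3% over all probes.

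Contrasts that average over many arrays gave more calls. The mean of the 13 lines gave 11 of 50 (22%) against 25.5% of all probes, 7 of them higher and 4 lower. Dye orientation gave 12 of 50 (24%) against 24.4%, and the mean day length difference 3 of 50 (6%) against 5.44%. Over the double mutant groups there were 4 calls in 200 tests (2%) against 1.97%. All 4 were in FCAVRN2 against FCA at 16 h, where 8% of the 50 and 7.85% of all probes were called. At an unadjusted p under 0.05 the double mutant tests gave 30 of 200 (15%), against 9.44% over all probes. They came from FCAVRN2 against FCA (16 of 50, or 32%, against 23.7%), FCAVRN1 against wild type (13 of 50, or 26%, against 7.0%) and FCAVRN2 against wild type (1 of 50, or 2%, against 4.62%). FCAVRN1 against wild type had no call after adjustment, and its replicate 2 is one of the 3 arrays on which the 50 spread more widely than all probes.

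The other families gave no call among the 50. For 16 h minus 8 h within a line limma called 0 of 700, against 0.0109% over all probes, and 31 (4.43%) had an unadjusted p under 0.05, against 6.02%. For 1 line against the others it called 0 of 700, against 0.259%, with 36 (5.14%) at an unadjusted p under 0.05, against 6.62%. For autonomous minus photoperiod lines it called 0 of 50, against 0.311%, with 6 (12%) at an unadjusted p under 0.05, against 9.48%. In all, 25 of the 50 probes were called in some contrast, against 52.6% of all probes, and 25 in none. Leaving dye orientation aside, 16 of the 50 were called, against 37.4% of all probes.

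**Figure D5:**
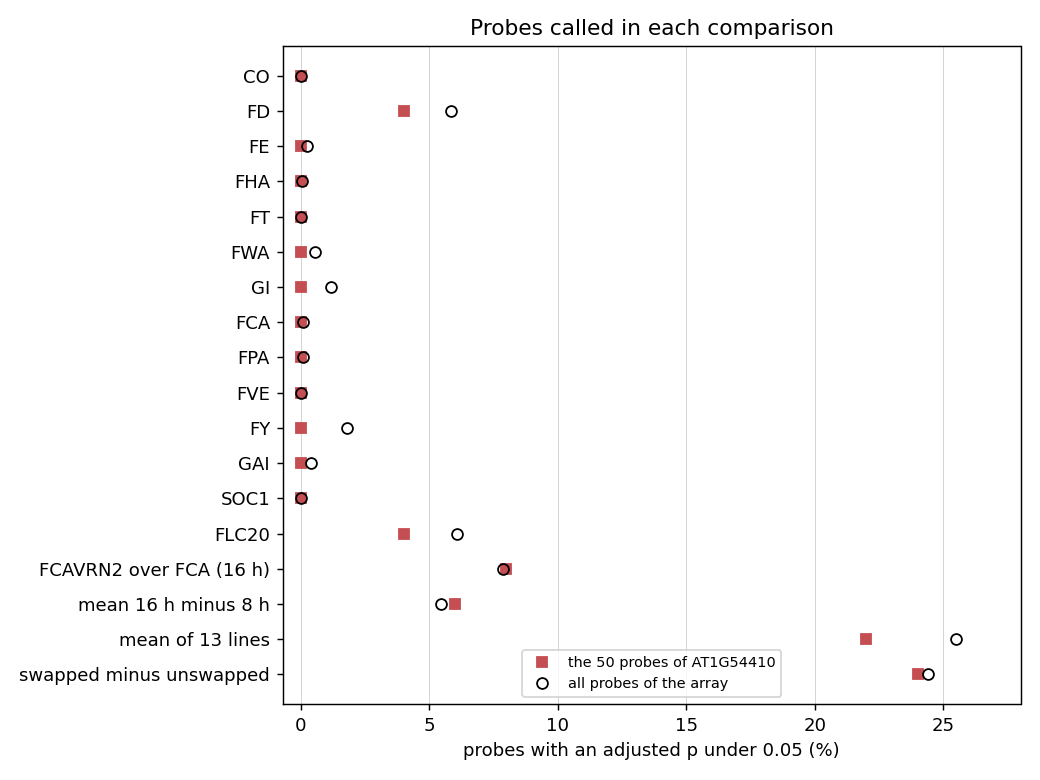
Share of the 50 annotated probes called at an adjusted p under 0.05 in limma, in percent, beside the share of all probes in the same contrasts. The pairs lie within a few percentage points of each other, as in the mean of the 13 lines (22% and 25.5%) and dye orientation (24% and 24.4%).

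In FD, a bZIP transcription factor that acts with FT at the shoot apex, SP0000125888 was higher and SP0000123725 lower. SP0000125888 gave 0.28 and 0.17 at 16 h and 0.12 and 0.40 at 8 h, or 0.24 ± 0.07 (SE; adjusted p = 0.039). SP0000123725 gave -0.09 and -0.16 at 16 h and -0.48 and -0.24 at 8 h, or -0.24 ± 0.07 (SE; adjusted p = 0.040). All 4 arrays of FD lay on the same side of 0 for each probe. Both calls were lost without 3 of the 4 arrays in turn: for SP0000125888 all but FD at 8 h replicate 2, with adjusted p up to 0.381, and for SP0000123725 all but FD at 8 h replicate 1, with adjusted p up to 0.388. One gene's 50 annotated probes thus held opposite calls in a single line.

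FLC20 showed a similar pair. SP0000124611 gave 0.06 and 0.22 at 16 h and 0.82 and 0.31 at 8 h, or 0.35 ± 0.08 (SE; adjusted p = 0.0097). SP0000125869 gave -0.12 and -0.21 at 16 h and -0.34 and -0.26 at 8 h, or -0.23 ± 0.07 (SE; adjusted p = 0.041). Each probe kept its sign on all 4 arrays. The first rested most on FLC20 at 8 h replicate 1, without which it was 0.22 (adjusted p = 0.334), and its call was also lost without 16 h replicate 2 (adjusted p = 0.165). The second kept its call only without 8 h replicate 2 (adjusted p = 0.045), and without each of the other arrays it had adjusted p of 0.108 to 0.345.

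FCAVRN2 against FCA at 16 h sets a double mutant against the line whose name it shares. FCA is an RNA-binding regulator of FLC, and VRN2 a Polycomb subunit needed for vernalization. Its swapped array is given first here. SP0000124158 gave -0.95 and -0.30, or -0.63 ± 0.14 (SE; adjusted p = 0.0079), and SP0000123549 gave -0.53 and -0.38, or -0.45 ± 0.11 (SE; adjusted p = 0.013). On the other side, SP0000125824 gave 0.50 and 0.16, or 0.33 ± 0.09 (SE; adjusted p = 0.025). SP0000116599 gave 0.02 and 0.56, or 0.29 ± 0.09 (SE; adjusted p = 0.037). In all, 2 probes were lower and 2 higher, and only the last had 1 of its arrays near 0. Without the swapped array the first 3 calls were lost, at -0.31, -0.33 and 0.19 with adjusted p of 0.570, 0.378 and 0.621. Without the unswapped array SP0000116599 was 0.02 with an adjusted p of 0.981. Set against wild type at 8 h, FCAVRN2 gave 0 and 0.13 for SP0000124158 and 0.23 and -0.23 for SP0000123549, with no call.

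Averaged over the 13 lines, 3 annotated probes were higher at 16 h than at 8 h. SP0000124188 ran from -0.28 to 0.44 with a median of 0.10 over 26 arrays at 16 h, and from -0.50 to 0.49 with a median of -0.04 over 26 arrays at 8 h. Its difference was 0.19 ± 0.04 (SE; adjusted p = 0.0035), positive in 10 of 13 lines. SP0000123725 ran from -0.16 to 0.43 with a median of 0.06 at 16 h, and from -0.48 to 0.31 with a median of -0.08 at 8 h. The difference of 0.17 ± 0.04 (SE; adjusted p = 0.013) was positive in 12 of 13 lines. SP0000125824 ran from -0.19 to 0.51 at 16 h and from -0.30 to 0.15 at 8 h, with a difference of 0.13 ± 0.04 (SE; adjusted p = 0.036).

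The groups overlapped for all 3 probes, and each difference was positive within both dye orientations. It was 0.17 on swapped and 0.21 on unswapped arrays for SP0000124188, and 0.19 and 0.15 for SP0000123725. The call of SP0000125824 was the least steady: it was lost without 15 of 51 arrays in turn, and without FVE it was 0.11 (adjusted p = 0.120). Leaving out GI at 8 h replicate 1 brought the count to 7 of 50 (14%), against 7.57% of all probes. A comparison of day lengths in these lines sets a line's ratio to wild type at 16 h against that at 8 h, so a change shared with wild type does not appear in it.

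Over the 13 lines together, SP0000125888 was the highest annotated probe. It ran from -0.36 to 0.40 with a median of 0.11 over 52 arrays, 41 above 0 and 9 below, and averaged 0.10 ± 0.02 (SE; adjusted p = 0.00032). In 12 of the 13 lines the mean was above 0. SP0000123713 was the lowest, from -0.84 to 0.73 with a median of -0.11, below 0 on 43 of 52 arrays, and averaged -0.13 ± 0.04 (SE; adjusted p = 0.011). The other 6 probes higher were SP0000124158, SP0000124611, SP0000124563, SP0000123703, SP0000124111 and SP0000125824, between 0.05 and 0.08. The other 3 lower were SP0000125851, SP0000123752 and SP0000125047, between -0.07 and -0.06. Of these calls, 4 were lost when single arrays were left out: SP0000123752 without 35 of 52 arrays, SP0000125047 without 33, SP0000125824 without 33 of 51 and SP0000125851 without 6.

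The extremes of the mean deviation from the array median were nearly the same probes. SP0000124611 and SP0000125888 stood highest, 0.091 and 0.090 above the median of the 50, and SP0000123713 and SP0000123459 lowest, 0.121 and 0.084 below it. SP0000123459 differed from the other 3 in having a median of 0, with values from -0.99 (FE at 16 h, replicate 2) to 0.53 (CO at 8 h, replicate 1). Its SD over arrays was 0.287, against a median of 0.172 over the 50.

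Dye orientation moved 12 annotated probes, 8 higher and 4 lower on swapped arrays. SP0000125047 ran from -0.19 to 0.32 with a median of 0.06 on swapped arrays, and from -0.70 to 0.23 with a median of -0.15 on unswapped arrays. The fitted term was 0.25 ± 0.04 (SE; adjusted p = 8.8e-06), and the swapped array was higher in 31 of 32 groups. SP0000125045 had a term of 0.25 ± 0.06 (SE) and SP0000123460 one of 0.24 ± 0.04 (SE), and the lowest was SP0000125848 at -0.13 ± 0.05 (SE). SP0000124188, one of the 3 probes higher at 16 h, was also called lower on swapped arrays. Within a group the 2 arrays differ in orientation and, other than in GI at 16 h, in replicate, so dye and replicate cannot be told apart there.

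Ratios beyond 2-fold were rare among the 50 annotated probes: 4 of 3199 (0.125%), against 0.666% over all probes. The largest was SP0000124174 on FWA at 16 h replicate 2, at 2.09 or 4.25-fold, while the median of the other members there was -0.015. On the second FWA array at 16 h the same probe was at 0.17. SP0000123695 reached 1.53 (2.89-fold) and SP0000124174 reached 1.08 on GI at 8 h replicate 1, and SP0000124600 reached 1.08 on FLC20 at 8 h replicate 1. The lowest values were -0.99 for SP0000125045 on FCAVRN1 against wild type replicate 2 and -0.99 for SP0000123459 on FE at 16 h replicate 2. Each was a value of 1 or a few probes on 1 array. The 4 ratios beyond 2-fold lay on arrays where such ratios were more frequent over all probes as well. Their share there was 4.38% on FWA at 16 h replicate 2, 3.17% on GI at 8 h replicate 1 and 3.10% on FLC20 at 8 h replicate 1.

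Although most pairs were unrelated, a few probes did move together. Of the 1225 pairs of annotated probes, 12 (0.98%) correlated above 0.6, against 0.786% over all pairs of probes on the array. Such pairs were thus about as frequent among the annotated probes as among any probes. Joining probes whose correlation exceeded 0.6 gave 5 sets with 15 probes, and left 35 in none. The sets were formed after their values were seen, and are given as a description. The first held SP0000123695, SP0000123713, SP0000123716, SP0000124106, SP0000124174 and SP0000125846, with a median correlation of 0.587. It was 0.609 once the mean of each dye orientation was subtracted, and 0.443 without GI at 8 h replicate 1 and FWA at 16 h replicate 2. Both arrays held its highest medians, 0.745 and 0.647. Its lowest were -0.655 on GAI at 8 h replicate 1 and -0.574 on FPA at 8 h replicate 1.

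The first set also showed how far 2 arrays of a group could differ. On GI at 8 h replicate 1 its 6 probes read between 0.53 and 1.53, all above 0, and on replicate 2 between -0.75 and -0.25, all below 0. On GAI at 8 h replicate 1 they read between -0.84 and -0.40, and on replicate 2 between -0.11 and 0.00. On FWA at 16 h replicate 2 they read between 0.15 and 2.09, and on replicate 1 between -0.23 and 0.17. The median of the set was 0.745 on replicate 1 and -0.322 on replicate 2 of GI, so both arrays departed from 0, in opposite directions. In GAI and FWA the larger values stood on 1 of the 2 arrays. The 2 arrays of each group also differ in dye orientation. Over all 50 probes, the 2 arrays of GI at 8 h had a correlation of -0.747, the lowest of the 32 groups, and those of FLC20 at 8 h had 0.576, the highest. The median over groups was 0.062.

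Probes outside the 50 also followed the first set. Of the 13774 other probes, 1133 (8.23%) correlated with its array medians above 0.6 and 384 above 0.8. Without both arrays named above, 883 and 158 did. The closest named probes were those of AT1G36060 (0.932), AT1G09740 (0.923) and AT1G80060 (0.923). Those of AT1G36060 spanned -0.96 to 1.36 over the arrays. The median correlation of the set with the other annotated probes was -0.086. Annotated probes that correlated above 0.6 with a member had been joined to the set, so a low value for the rest follows in part from how it was formed.

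The 4 smaller sets had other patterns. SP0000123724, SP0000124134 and SP0000124158 had a median correlation of 0.619, and were lowest on FCAVRN2 against FCA at 16 h replicate 2 (-0.601) and highest on FY at 16 h replicate 1 (0.451). Among the other probes 394 (2.86%) followed them above 0.6. The closest named one belonged to SAMDC, which encodes S-adenosylmethionine decarboxylase of polyamine synthesis, at 0.792. SP0000123675 and SP0000124600 correlated at 0.642, from -0.748 on FCAVRN2 against FCA at 16 h replicate 2 to 0.941 on FLC20 at 8 h replicate 1. They were followed by 382 other probes (2.77%), with AT2G41840 closest at 0.840.

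SP0000123725 and SP0000124188, both higher at 16 h in the mean over lines, correlated at 0.665. They were followed above 0.6 by only 10 other probes (0.0726%), and their medians ran from -0.400 on FD at 8 h replicate 2 to 0.399 on GAI at 8 h replicate 1. SP0000124281 and SP0000125047, both called for dye orientation, correlated at 0.656. That was 0.462 once the mean of each orientation was subtracted, and 53 other probes (0.385%) followed them.

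Few relatives of AT1G54410 were named on the array. Of 10 dehydrin genes listed, 3 were measured: AT1G54410, COR47 with 2 probes and AT4G39130 with 1. Of 20 other genes of cold, drought and LEA proteins, 3 were measured: KIN2 and LEA4-5 with 1 probe each and STZ with 3. None of 7 metallothionein genes, whose products also bind metal ions, was named. Over the 14 lines limma called 0 of 42 tests in each of the 2 lists that had measured genes, against 1.15% of all rows of the gene table.

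COR47, an acidic dehydrin induced by cold and dehydration, was lower over the 13 lines. It ran from -0.48 to 0.25 over the 64 arrays, and its mean was -0.086 ± 0.017 (SE; adjusted p = 0.00028), below 0 in 13 of 13 lines. In the same contrast 25.2% of all rows of the gene table were called. All 13 lines were set against wild type, so their signs need not be independent. The mean was -0.14 on swapped and -0.033 on unswapped arrays, and its dye term was -0.10 (adjusted p = 0.014). Its 2 probes correlated at -0.12 over arrays, with means of -0.068 and -0.10. With swapped arrays turned its mean was 0.05 (adjusted p = 0.050), so the direction turned as well. In GI, its lowest line, it was -0.25 ± 0.07 (SE; adjusted p = 0.096).

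KIN2, a small cold-inducible protein, and AT4G39130 passed in FCAVRN2 against FCA at 16 h, where 1038 of 12647 rows of the gene table were called. KIN2 gave 1.01 on the swapped and 0.86 on the unswapped array, or 0.93 ± 0.26 (SE; adjusted p = 0.024), and without the swapped array 0.76 (adjusted p = 0.380). AT4G39130 gave -0.21 and -0.54, or -0.37 ± 0.12 (SE; adjusted p = 0.049), and its call was lost without either array. Under 11 other ways of processing, KIN2 kept its call in 7 and AT4G39130 in 3. The dye term of AT4G39130 was 0.19 (adjusted p = 0.0011 in limma). In FCAVRN2 against FCA at 16 h the median of the 50 annotated probes was -0.036 on the swapped and 0 on the unswapped array. LEA4-5, which protects enzymes during water loss, was 0.46 ± 0.15 (SE; adjusted p = 0.147) in FWA, with no call. Its FWA arrays gave 0.27 and 1.64 at 16 h and -0.16 and 0.10 at 8 h. The mean thus rested mostly on FWA at 16 h replicate 2. STZ, a zinc finger repressor of stress responses, had no call in any line, and its 3 probes had a median correlation of 0.102.

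Named genes whose array medians were most like those of AT1G54410 over the 64 arrays were AT5G41680 (0.620), AT3G05500 (0.601), AT5G06130 (0.598), SAT32 (0.593) and AT3G56680 (0.591). Least like were AT2G45180 (-0.627), TET3, a tetraspanin of the plasma membrane (-0.577), and AT2G04700 (-0.562). Over all 5163 other genes the 5th and 95th percentiles of the correlation were -0.355 and 0.387. Without GI at 8 h replicate 1, the 8 values ran from 0.497 to 0.579 and from -0.604 to -0.481. AT5G41680, with 1 probe, ran from -1.0 to 0.59, against -0.053 to 0.060 for the median of the 50. These ranges are not like for like, since single probes of the 50 reached -0.99 and 2.09. All these points share arrays, dyes and normalization.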

How the data were processed

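RNA of Arabidopsis lines and comparators was hybridised to 2-colour arrays. Ratios were deposited by the authors after a spatial normalization, per the labels' protocols. Their median was 1 on every array, 146 were missing and 1 of these was among the 50 probes. Log2 was taken of the deposited ratios and nothing else was changed. The probe gene table named 6341 probes with 1 gene each and left 7483 unnamed, and 6322 of the named ones matched TAIR10.1. Each named gene became the median of its probes. All rows were fitted with limma 3.58.1 (R 4.3.3), using a mean per group and a dye term, two-sided, with Benjamini-Hochberg adjustment within each contrast and a threshold of 0.05. Both GI arrays at 16 h share a replicate number, so their average was used, which left 63 arrays. Nothing else in the labels settles whether replicates were separate cultures, so p-values measure the spread between these arrays, whose number limits the precision. Intensities were not used here. The fit was tested on simulated data.

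Permutation tests used 100000 random sign flips over the 32 groups, and every possible sign flip over the 13 lines. The genes named were AT1G54410, the listed dehydrins, cold, drought and LEA genes and metallothioneins, the 5 most and 3 least like it, and the 3 with the next most probes. Of the 50 probes, the 2 highest and 2 lowest by mean deviation from the array median were named. Called probes, sets of probes and the genes closest to them were named after their values were seen. The members and lists were chosen with earlier results of these data known. Alternatives were the direction of swapped arrays, the dye term, scaling, quantile normalization, the mean of the probes, ratios of exactly 1 set to missing, array weights, a replicate block, the GI arrays as 2 replicates, a filter on flat rows, FVE left out of the mean and each array left out in turn. Fits without moderation, with the mean of each orientation subtracted and without the 2 arrays of the largest values were added after seeing the data.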

Additional observations from a re-analysis of the deposited data

Results flagged for a closer look

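Within each single line the 4 arrays were searched for one that lay far from the others, in the median and in the SD of the 50 annotated probes. In 7 of 28 such searches the gap was above Dixon's 95% critical value for 4 samples. Chance picks out about 1 in 20 groups of normally distributed values, a rate that does not hold for the medians, many of which are exactly 0. The medians of 5 arrays stood apart: FCA at 8 h replicate 1 (0.022), FHA at 16 h replicate 2 (-0.012), FWA at 16 h replicate 2 (-0.0091), GAI at 8 h replicate 1 (-0.053) and SOC1 at 8 h replicate 1 (-0.016). In FHA and SOC1 the other 3 arrays were at exactly 0, which makes any departure stand out. The same limit holds for FCA, FWA and GAI, where 2 of the other arrays were at exactly 0. The third was at -0.0024 in FCA, -0.0006 in FWA and 0.0009 in GAI. The SD of the 50 stood apart on FE at 16 h replicate 2, at 0.308 with the other FE arrays between 0.160 and 0.174, and on FD at 16 h replicate 1, at 0.159 with the others between 0.207 and 0.213.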

How the results depend on the processing

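The median of the 50 annotated probes passed in 0 of 50 contrasts under each setting that kept it, with values from -0.058 to 0.055 and a lowest adjusted p of 0.0688, without moderation. The filter on flat rows removed it and kept 32 of the 50 probes. Leaving out each array in turn gave 1064 values between -0.041 and 0.049.

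With swapped arrays turned, 14 results changed sign (counted where both values exceeded 1 SE or 1 was called): COR47 over 13 lines 0.053, KIN2 in FCAVRN2 against FCA -0.076, SP0000125888 in FD -0.041, SP0000124611 in FLC20 -0.088, and for day length SP0000123725 -0.019 and SP0000125824 -0.060. In FCAVRN2 against FCA SP0000123549 was 0.074, SP0000124158 0.32 and SP0000125824 -0.17. Over 13 lines SP0000124111 was -0.064, SP0000124158 -0.0012, SP0000124563 -0.029, SP0000125824 -0.046 and SP0000125888 -0.029. The cause was not tested.

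Calls among the 50 over 14 lines, 4 as reported, came to 0 with swapped arrays turned (share over all probes 0.0765%), 2 without the dye term (0.871%), 2 with arrays scaled (0.811%), 0 after quantile normalization (0.644%), 2 with ratios of exactly 1 missing (1.09%) and 8 with the GI arrays as 2 replicates (1.51%). Over the double mutants, also 4, they came to 1 turned (0.221%), 0 scaled (0.0199%), 0 after quantile normalization (0.0289%), 0 with array weights (0.00543%) and 7 with the replicate block (2.31%). For mean day length, 3 became 0 with swapped arrays turned (0.0289%). Over the 13 lines, 11 became 6 (12%) with ratios of exactly 1 missing, while the share over all probes was 27.3%, against 25.5% as reported, and 6 of the 32 probes kept with flat rows left out. Dye orientation, 12, became 7 (14%) under the replicate block, against 14.6% over all probes. The SD of the array medians, 0.016, became 0.037 with ratios of exactly 1 missing.

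Without each array in turn the counts ran from 2 to 10 over lines (10, or 1.43%, without GI at 8 h replicate 2, against 1.83% over all probes, 8 without GAI at 8 h replicate 2, and 2 without either FD array at 16 h, FLC20 at 8 h replicate 1 or FLC20 at 16 h replicate 2), 1 to 7 over double mutants (7, or 3.5%, without FCAVRN1 against wild type replicate 1, against 2.43%, and 1 without FCAVRN2 against FCA replicate 2, against 0.436%), 7 to 13 over the 13 lines (7, or 14%, without FPA at 16 h replicate 1, against 24%) and 2 to 7 for day length (7, or 14%, without GI at 8 h replicate 1, against 7.57%). The replicate block changed no call of AT1G54410. After the group means and the dye term were removed, arrays of equal number and hours had a median correlation of 0.028 over 450 pairs, from -0.652 to 0.545. Replicate number mostly went with dye orientation, so the dye term took up most of any shared replicate effect. These correlations therefore cannot decide whether replicate numbers pair the samples.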
